A study of Homo sapiens with 6 samples.

Results

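ATF4 and DDIT3, the gene of CHOP, were followed together with 8 genes linked to them in 786-O, an established line of human renal cell carcinoma. The 8 are CEBPB, TRIB3, PPP1R15A, NUPR1, CHAC1, ASNS, PSAT1 and PHGDH. Together they are 10 of the 58735 genes of the count table, found by gene name, and 9 of them were among the 14573 genes with enough counts to be tested. They were chosen for their known roles in the integrated stress response, with earlier results of these data known. No threshold on the measured values was used. The sh-CBX7 group holds 3 libraries of cells that carry a hairpin RNA targeting CBX7, a chromobox subunit of Polycomb complexes. The sh-Control group holds 3 libraries of the same line with a control hairpin. The labels give no hairpin sequence, time after transduction, clone, drug or medium, nor whether replicate libraries are separate cultures. P-values therefore reflect the spread among these libraries alone, and part or all of it may be technical.

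In the integrated stress response, kinases that sense unfolded protein, missing amino acids, double-stranded RNA or lack of heme phosphorylate the initiation factor eIF2. General translation then falls, while the ATF4 mRNA, whose upstream reading frames hold ribosomes back in unstressed cells, is translated more. ATF4 binds DNA as a dimer with C/EBP partners, often at C/EBP-ATF response elements (CARE), and switches on enzymes of amino acid supply as well as CHOP, which is tied to cell death when stress lasts. TRIB3 and PPP1R15A close the loop: TRIB3 binds and restrains ATF4, and PPP1R15A brings a phosphatase to eIF2. Tumour cells often run this pathway when oxygen or nutrients are short. Only RNA was measured here, so neither eIF2 phosphorylation nor ATF4 protein is known for these libraries.

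The start regions of the genes are shown because the motifs bound by these factors lie there in only some members. RefSeq's table of promoters (GRCh38.p14) held a window of 300 bases, 250 before to 50 after the transcript start, for 9 of the 10 genes, all but NUPR1. ATF4, DDIT3, ASNS and CEBPB had 2 windows from different starts and TRIB3 had 3. The windows were searched on both strands for 3 motifs: the CARE written TGATGNAAN, the cAMP response element (CRE) TGACGTCA, and the AP-1 site TGANTCA. In the whole table, 3.61% of 35116 windows held the CARE, 1.85% the CRE and 7.71% the AP-1 site. Of the members, 4 held a match, and no match overlapped another. The 250 bases before the start are given for these 4 genes, from the first window listed where there are 2, 5′ to 3′ on the gene's strand, with the match in capitals.
CHAC1, chr15:40953221-40953470, plus strand: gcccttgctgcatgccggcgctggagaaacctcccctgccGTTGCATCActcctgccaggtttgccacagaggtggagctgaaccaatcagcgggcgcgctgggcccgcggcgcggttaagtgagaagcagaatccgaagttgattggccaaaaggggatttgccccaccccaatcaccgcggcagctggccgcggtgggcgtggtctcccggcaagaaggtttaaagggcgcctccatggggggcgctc
ASNS, chr7:97872409-97872658, minus strand: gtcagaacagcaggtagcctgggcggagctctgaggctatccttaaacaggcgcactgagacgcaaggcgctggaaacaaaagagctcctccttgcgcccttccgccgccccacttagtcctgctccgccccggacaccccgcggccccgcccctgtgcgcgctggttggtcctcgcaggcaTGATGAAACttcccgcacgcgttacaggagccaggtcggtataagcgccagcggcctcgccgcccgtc
PPP1R15A, chr19:48872171-48872420, plus strand: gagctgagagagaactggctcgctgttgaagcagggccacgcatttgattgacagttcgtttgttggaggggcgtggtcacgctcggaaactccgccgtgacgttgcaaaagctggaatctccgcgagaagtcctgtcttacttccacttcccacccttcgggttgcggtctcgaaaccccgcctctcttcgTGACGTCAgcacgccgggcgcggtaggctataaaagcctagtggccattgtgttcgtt
DDIT3, chr12:57520515-57520764, minus strand: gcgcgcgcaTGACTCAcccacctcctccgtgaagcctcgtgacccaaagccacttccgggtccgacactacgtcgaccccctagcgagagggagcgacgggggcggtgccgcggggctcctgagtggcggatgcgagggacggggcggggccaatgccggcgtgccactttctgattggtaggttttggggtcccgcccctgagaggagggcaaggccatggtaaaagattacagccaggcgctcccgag

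CHAC1 and ASNS were the 2 members with this spelling of the CARE in their windows. In CHAC1 it was read on the opposite strand as GTTGCATCA, at positions -210 to -202, where position 1 is the first transcribed base and -1 the base before it. In the first window of ASNS it was TGATGAAAC at -68 to -60, and its second window held no match. PPP1R15A had a CRE at -58 to -51, and DDIT3 an AP-1 site at -241 to -235, the same site lying at -238 to -232 from its second start. CHAC1 was called lower in sh-CBX7 and ASNS, PPP1R15A and DDIT3 higher, so the members with a match did not move one way. The call of ASNS rests on 30 to 84 counts per library, which need not describe ASNS mRNA, as set out below. ATF4, CEBPB, TRIB3, PSAT1 and PHGDH held none of these letters in their windows. For every member, DDIT3 and PPP1R15A among them, the search says nothing about other spellings or about binding elsewhere. Over all tested genes with a window, 300 held the CARE, of which 31.0% were higher and 27.3% lower in sh-CBX7, against 26.5% and 28.9% of those without it. The CRE stood in 409, of which 24.4% were higher and 31.3% lower, against 26.7% and 28.7% without it. The AP-1 site stood in 811, of which 33.9% were higher and 24.5% lower, against 26.0% and 29.2% without it. These shares are a description over genes, with no test.

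**Figure D1:**
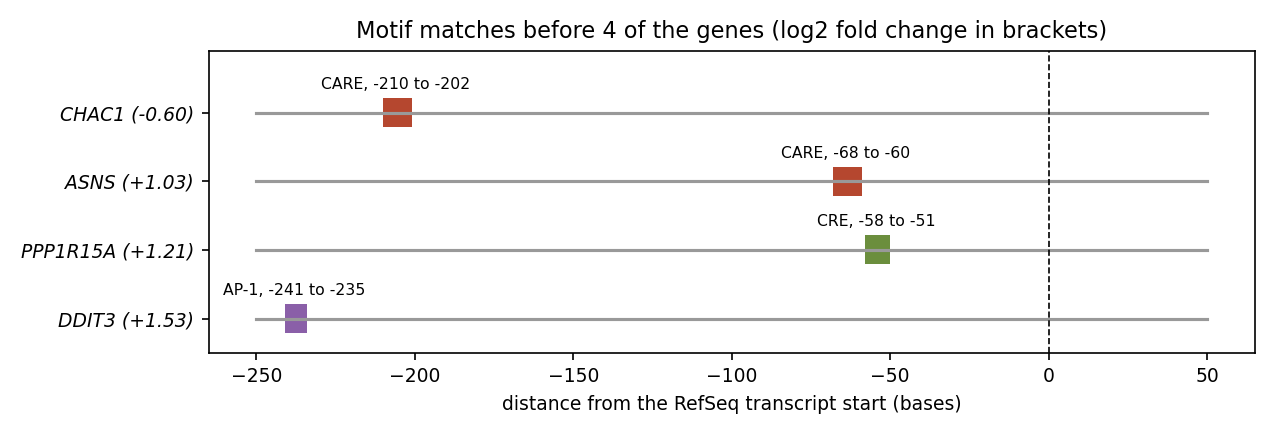
Motif matches in the windows of CHAC1, ASNS, PPP1R15A and DDIT3, by distance in bases from the RefSeq transcript start (dashed line), with the log2 fold change of each gene, sh-CBX7 over sh-Control, in brackets. The CARE of ASNS and the CRE of PPP1R15A lie nearer the start than the matches of CHAC1 and DDIT3.

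Across the members, 7 of the 9 tested genes were higher in sh-CBX7, 1 was lower and 1 was not called, by edgeR's quasi-likelihood test with Benjamini-Hochberg adjustment over all tested genes and a threshold of 0.05. ASNS is among the higher genes, though its counts need not describe ASNS mRNA, as set out below. The change was broad in these cells: 53.3% of tested genes were called, 26.1% higher and 27.2% lower. The median log2 fold change was 0.90 over the 9 tested members and -0.006 over all tested genes. The groups did not overlap in 8 of the 9 tested members, as in 59% of all tested genes. Levels are given as normalised CPM, the counts of a gene scaled to a common library size, and in bulk RNA a change of each cell cannot be told apart from a change in the share of cells that express a gene.

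**Figure D2:**
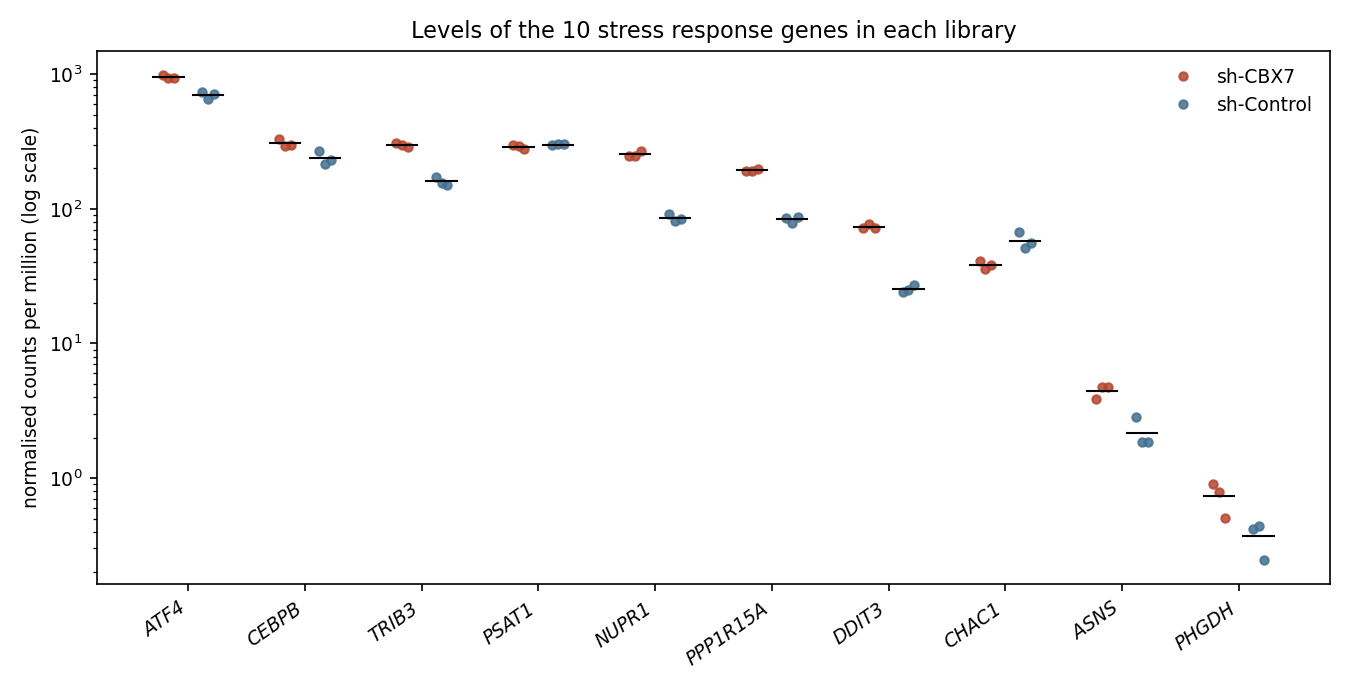
Normalised CPM of the 10 genes in each library (points, log axis), sh-CBX7 left of sh-Control, with the group mean as a bar. The groups are separate for all genes but PSAT1, and CHAC1 is the one with lower values in sh-CBX7.

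Among the transcription factors, ATF4 rose modestly and DDIT3 by much more. ATF4 (ENSG00000128272; GRCh38 chromosome 22, 39519695 to 39522685, plus strand) had 987.1, 944.6 and 942.3 CPM in the sh-CBX7 libraries, against 744.4, 657.6 and 717.1 CPM in the sh-Control libraries. Every sh-CBX7 library was above every sh-Control library, with a gap wider than the spread in either group. The means were 958.0 ± 25.2 CPM in sh-CBX7 and 706.4 ± 44.4 CPM in sh-Control (SD, n = 3 each). The log2 fold change was 0.44 (SE 0.05, edgeR adjusted p = 4.13e-07) or 1.36-fold. With this level ATF4 stood above 99.0% of tested genes, while 80.6% of tested genes had a lower log2 fold change. The processed pseudogene ATF4P3, which could take reads of ATF4, held 26, 22 and 20 counts in sh-CBX7 and 15, 18 and 18 counts in sh-Control, or 0.137% of the ATF4 counts.

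DDIT3 (ENSG00000175197; chromosome 12, 57516588 to 57521737, minus strand) encodes CHOP, a C/EBP-family factor that ATF4 switches on. It had 71.85, 77.0 and 72.18 CPM in sh-CBX7, against 24.22, 25.07 and 27.12 CPM in sh-Control. The lowest sh-CBX7 library was thus far above the highest sh-Control library. The means were 73.7 ± 2.88 CPM in sh-CBX7 and 25.5 ± 1.49 CPM in sh-Control. The log2 fold change was 1.53 (SE 0.07, edgeR adjusted p = 7.82e-14) or 2.89-fold, and 97.9% of tested genes had a lower one. Of the 1307 exon bases of DDIT3 in GENCODE 29, 39.6% also lie in exons of other genes on either strand. The longest of these overlaps, 355 bases, is with MARS, the methionyl-tRNA synthetase gene on the opposite strand, whose log2 fold change was -0.17 (edgeR adjusted p = 0.0123). Of each coding DDIT3 transcript examined, 34.5 to 43.0% of the bases are shared. The strand setting of the counting is not given in the sources used here, so reads in the shared bases cannot be assigned.

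CEBPB (ENSG00000172216; chromosome 20, 50190734 to 50192689, plus strand), a C/EBP factor that pairs with ATF4, had 328.6, 294.2 and 295.6 CPM in sh-CBX7 and 269.6, 215.0 and 230.6 CPM in sh-Control. The groups did not overlap, but sh-Control replicate 1 came close to the sh-CBX7 libraries. The log2 fold change was 0.36 (SE 0.07, edgeR adjusted p = 0.000152), and it was 0.46 without that library. CEBPB-AS1, on the opposite strand, shares 11.8% of the CEBPB exon bases and held 8 counts or fewer in each library.

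The feedback and cofactor genes all rose. TRIB3 (ENSG00000101255; chromosome 20, 362835 to 397559, plus strand), a pseudokinase induced by ATF4 and CHOP that binds ATF4, had 307.4, 299.4 and 290.5 CPM in sh-CBX7, against 173.6, 155.1 and 151.2 CPM in sh-Control. The groups were well apart, and the log2 fold change was 0.90 (SE 0.06, edgeR adjusted p = 2.25e-11). PPP1R15A (ENSG00000087074; chromosome 19, 48872392 to 48876057, plus strand), also called GADD34, is the stress-induced subunit that directs protein phosphatase 1 to eIF2. It had 190.7, 189.7 and 198.2 CPM in sh-CBX7, against 84.81, 78.24 and 87.32 CPM in sh-Control, and its log2 fold change was 1.21 (SE 0.06, edgeR adjusted p = 1.76e-13). Its constitutive counterpart PPP1R15B changed far less, with 94.7 ± 5.46 CPM in sh-CBX7 and 82.7 ± 5.20 CPM in sh-Control (log2 fold change 0.19, SE 0.07, edgeR adjusted p = 0.0174); it was chosen after its values were seen.

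NUPR1 (ENSG00000176046; chromosome 16, 28532708 to 28539174, minus strand), a small chromatin-linked cofactor first described in stressed pancreas, had the highest log2 fold change of the 9 tested members. Its values were 245.7, 247.1 and 268.8 CPM in sh-CBX7, against 92.08, 80.94 and 84.13 CPM in sh-Control. The means were 253.8 ± 13.0 CPM in sh-CBX7 and 85.7 ± 5.74 CPM in sh-Control. The log2 fold change was 1.57 (SE 0.06, edgeR adjusted p = 3.97e-15) or 2.96-fold. Its fold change lay close to that of DDIT3, and 98.0% of tested genes had a lower one.

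CHAC1 (ENSG00000128965; chromosome 15, 40952962 to 40956519, plus strand), which degrades glutathione and is induced by ATF4 and CHOP in many cells, went the other way. It had 40.7, 35.93 and 38.26 CPM in sh-CBX7, against 67.62, 51.46 and 55.41 CPM in sh-Control. All sh-CBX7 libraries were below all sh-Control libraries, and sh-Control replicate 1 was the highest. The means were 38.3 ± 2.39 CPM in sh-CBX7 and 58.2 ± 8.42 CPM in sh-Control. The log2 fold change was -0.60 (SE 0.09, edgeR adjusted p = 4.94e-06) or 1.52-fold lower. Without sh-Control replicate 1 the log2 fold change was -0.48 and still called. GENCODE 29 places no other gene's exons over CHAC1. Its relative CHAC2, a constitutive enzyme of the same kind and chosen after its values were seen, had -0.34 (SE 0.16, edgeR adjusted p = 0.0731) as its log2 fold change, which did not pass the test.

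Of the 3 enzymes of amino acid supply, ASNS was called higher, PSAT1 was not called and PHGDH was not tested. ASNS (ENSG00000070669, chromosome 7, 97852118 to 97872542, minus strand), which makes asparagine, had few counts: 73, 79 and 84 in sh-CBX7, against 47, 34 and 30 in sh-Control. In CPM these were 3.87, 4.77 and 4.74 in sh-CBX7 and 2.83, 1.87 and 1.84 in sh-Control, without overlap. The log2 fold change was 1.03 (SE 0.22, edgeR adjusted p = 0.000378). The level needs care, since the annotated transcript AC079781.5 runs on the same strand and holds 44.6% of the ASNS exon bases. It covers 82.0 to 100% of each of the 7 coding ASNS transcripts examined. AC079781.5 itself held 7, 35 and 19 counts in sh-CBX7 and 8, 13 and 11 counts in sh-Control (log2 fold change 0.89, edgeR adjusted p = 0.13). Whether reads in both genes were dropped or shared is not given in the sources used here, so these counts need not hold all reads of ASNS. AC079781.5 held fewer counts than ASNS in every library, so reads in the shared bases may have been dropped. The ASNS counts and fold change may then come mainly from bases outside the coding transcripts, and need not describe ASNS mRNA.

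PSAT1 (ENSG00000135069; chromosome 9, 78297143 to 78330093, plus strand), the aminotransferase of serine synthesis, had 297.0, 293.5 and 276.1 CPM in sh-CBX7, against 296.7, 303.7 and 301.0 CPM in sh-Control. The groups overlapped, and the log2 fold change, -0.06 (SE 0.05, edgeR adjusted p = 0.389), did not pass the test. It is a well expressed gene, above 96.1% of tested genes in CPM. PHGDH (ENSG00000092621; chromosome 1, 119648411 to 119744226, plus strand), the dehydrogenase that opens the same pathway, was barely detected. It had 17, 13 and 9 counts in sh-CBX7, against 7, 8 and 4 counts in sh-Control, and fell below the filter on low counts. Its 0.73 ± 0.20 CPM in sh-CBX7 and 0.37 ± 0.11 CPM in sh-Control did not overlap, with an exact two-sided permutation p = 0.1, the smallest that 3 against 3 libraries can give. In the 5 alternative settings in which PHGDH could be fitted, 1 without the low count filter and 4 without 1 library, edgeR gave it log2 fold changes of 0.75 to 1.17 with adjusted p of 0.0702 to 0.277. PSPH, the phosphatase that ends the pathway and chosen after its values were seen, rose, with 105.1 ± 2.11 CPM in sh-CBX7 and 70.6 ± 0.14 CPM in sh-Control (log2 fold change 0.57, edgeR adjusted p = 3.60e-08).

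**Figure D3:**
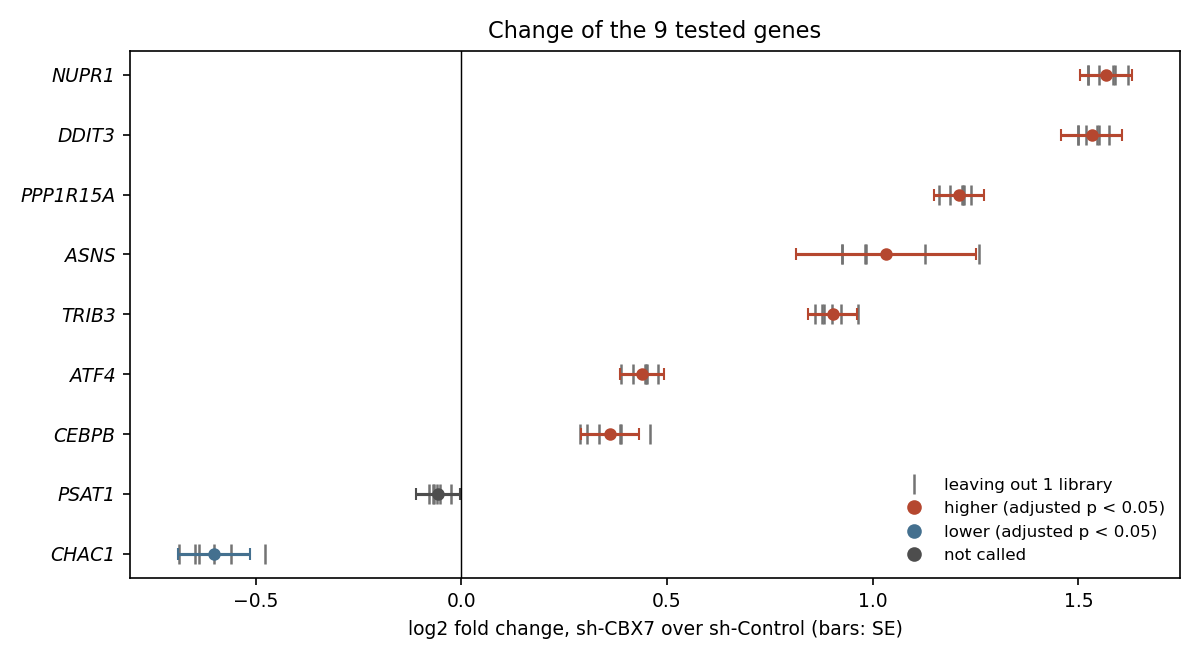
Log2 fold change of the 9 tested genes, sh-CBX7 over sh-Control, with its SE as a bar and the values when 1 library was left out as ticks. NUPR1 and DDIT3 lie near 1.5, PSAT1 near 0 and CHAC1 below 0, and each gene stays on its side of 0 when a library is left out.

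Levels between genes were compared per length, as TPM, in which counts are divided by the gene length in the deposited table and scaled to one total per library. In sh-CBX7 the order of mean TPM was ATF4 (1182 ± 33.2), CEBPB (485.6 ± 31.6), PSAT1 (409.7 ± 17.4), TRIB3 (270.3 ± 8.46), PPP1R15A (193.5 ± 3.87), DDIT3 (174.9 ± 7.28), NUPR1 (138.8 ± 6.54), CHAC1 (57.7 ± 3.58), ASNS (3.11 ± 0.35) and PHGDH (0.247 ± 0.069). No neighbours in this order overlapped between libraries. In sh-Control the mean TPM was 878.2 ± 37.6 for ATF4, 429.6 ± 13.7 for PSAT1, 380.8 ± 37.8 for CEBPB, 145.6 ± 9.18 for TRIB3, 88.3 ± 11.2 for CHAC1, 84.4 ± 3.51 for PPP1R15A, 61.0 ± 3.86 for DDIT3, 47.2 ± 2.30 for NUPR1, 1.53 ± 0.37 for ASNS and 0.125 ± 0.037 for PHGDH. There PSAT1 overlapped CEBPB, and CHAC1 overlapped PPP1R15A. By mean TPM, CHAC1 was below PPP1R15A, DDIT3 and NUPR1 in sh-CBX7 and above them in sh-Control. The order rests on the length used: the table gives NUPR1 5674 bases, while its shortest coding transcript in GENCODE 29 has 550. With such transcripts for every member, NUPR1 moved to rank 2 of the 10 in sh-CBX7 and rank 3 in sh-Control, where it was then above CHAC1. CEBPB moved to rank 5 in sh-CBX7 and rank 4 in sh-Control, and PPP1R15A to rank 7 in both groups, below DDIT3 in sh-CBX7 with overlapping libraries. ATF4 stayed at rank 1 and ASNS and PHGDH at ranks 9 and 10 in both groups. The levels and ranks of ASNS and DDIT3 rest on counts in which reads in bases shared with other genes cannot be assigned. With either length, CHAC1 was below PPP1R15A and DDIT3 in sh-CBX7 and above their means in sh-Control.

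Set against ATF4 in the same library, a ratio that no scaling changes, the genes fell into groups. DDIT3 had 7.28, 8.15 and 7.66 reads per 100 ATF4 reads in sh-CBX7, against 3.25, 3.81 and 3.78 in sh-Control. NUPR1 had 24.9, 26.2 and 28.5 in sh-CBX7, against 12.4, 12.3 and 11.7 in sh-Control. PPP1R15A had 19.3, 20.1 and 21.0 in sh-CBX7, against 11.4, 11.9 and 12.2 in sh-Control. These 3 genes and TRIB3 were higher relative to ATF4 in each sh-CBX7 library, TRIB3 with 31.1, 31.7 and 30.8 in sh-CBX7, against 23.3, 23.6 and 21.1 in sh-Control. ASNS, with few counts, had 0.39, 0.51 and 0.50 in sh-CBX7, against 0.38, 0.28 and 0.26 in sh-Control, groups that barely separate. CEBPB was close to ATF4 in its change, at 31.9 ± 1.18 in sh-CBX7 and 33.7 ± 2.21 in sh-Control, with overlapping libraries. CHAC1 and PSAT1 were lower relative to ATF4 in each sh-CBX7 library. CHAC1 had 4.12, 3.80 and 4.06 in sh-CBX7, against 9.08, 7.83 and 7.73 in sh-Control, and PSAT1 had 30.1, 31.1 and 29.3 in sh-CBX7, against 39.85, 46.18 and 41.97 in sh-Control. The ratios use read counts without length, so they compare libraries, not genes.

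**Figure D4:**
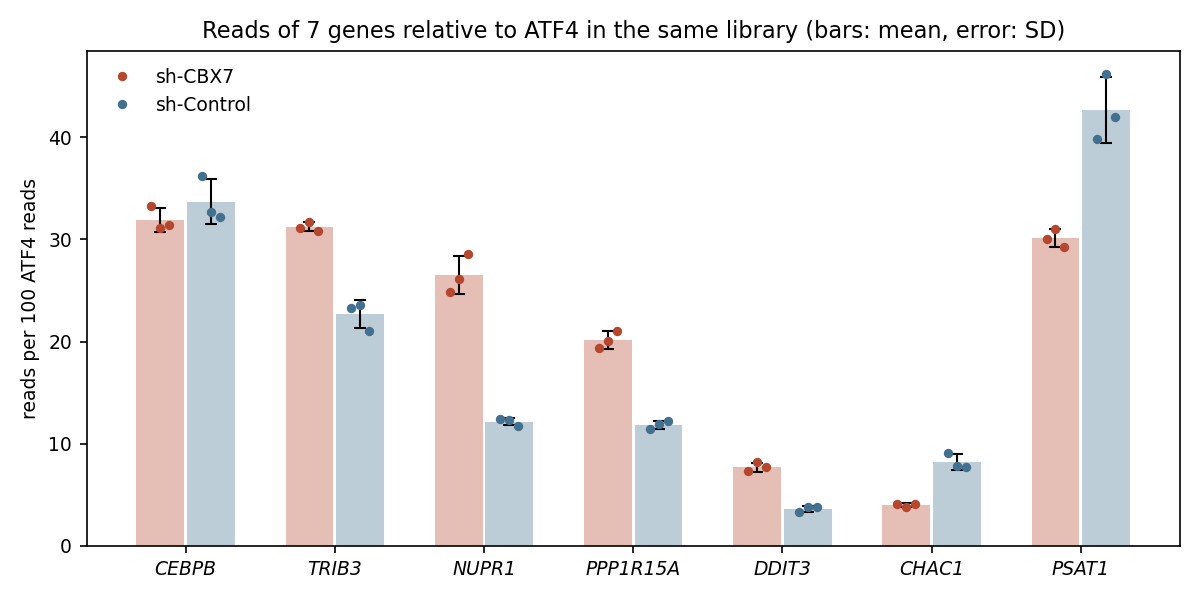
Reads of 7 members per 100 ATF4 reads in each library (points, linear axis), sh-CBX7 left of sh-Control, with the group mean as a bar and its SD as an error bar. ASNS and PHGDH, which had few counts, are left out. NUPR1, PPP1R15A, DDIT3 and TRIB3 are higher and CHAC1 and PSAT1 lower in sh-CBX7, and CEBPB overlaps.

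Upstream of ATF4, 22 genes of the eIF2 kinases and eIF2 machinery were tested. Of these, 3 (13.6%) were higher and 8 (36.4%) lower, with a median log2 fold change of -0.08. The counts of this and the other lists stand beside 26.1% higher and 27.2% lower over all tested genes. The lists, like the members, were drawn up with earlier results of these data known. The kinases EIF2AK1 (HRI), EIF2AK3 (PERK) and EIF2AK4 (GCN2) had log2 fold changes of 0.06, -0.05 and -0.11 and did not pass the test, and EIF2AK2 (PKR) was higher at 0.22 (edgeR adjusted p = 0.0226); the 4 kinases were chosen after their values were seen. The genes with the smallest p were GCN1, which activates GCN2 on stalled ribosomes (-0.72), EIF2B3, a subunit of the exchange factor eIF2B (-0.91), EIF2A, an alternative initiation factor (-0.60), and PPP1CB, a catalytic subunit of protein phosphatase 1 (0.72).

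The bZIP partners and related transcription factors had 10 of 19 tested genes higher and 3 lower, with a median log2 fold change of 0.245. ATF3, which ATF4 induces in many cells, had 35.02, 33.33 and 31.6 CPM in sh-CBX7, against 12.98, 13.64 and 14.97 CPM in sh-Control (log2 fold change 1.27, edgeR adjusted p = 2.30e-10). CEBPD, another C/EBP factor, had 497.9, 429.5 and 453.9 CPM in sh-CBX7, against 237.9, 180.2 and 195.4 CPM in sh-Control (1.17, edgeR adjusted p = 2.18e-11). JDP2, a dimer partner of AP-1 proteins, rose by 1.01 and BACH1, a heme-sensing repressor, by 1.27 on the log2 scale. ATF5, a relative of ATF4 that is also controlled by translation and was chosen after its values were seen, was lower, with 16.4 ± 0.70 CPM in sh-CBX7 and 30.4 ± 4.23 CPM in sh-Control (log2 fold change -0.89).

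The stress and death regulators linked to ATF4 and CHOP had the highest share of called genes in one direction among the lists. Of 20 tested genes, 16 were higher and 2 lower, with a median log2 fold change of 0.73, against 26.1% higher and a median of -0.006 over all tested genes. CDKN1A, the CDK inhibitor p21, had 427.9 ± 10.3 CPM in sh-CBX7 and 141.9 ± 13.5 CPM in sh-Control (log2 fold change 1.59, edgeR adjusted p = 3.13e-15). GDF15, a secreted stress cytokine, had 240.0, 228.0 and 238.0 CPM in sh-CBX7, against 92.98, 72.8 and 84.37 CPM in sh-Control (1.498, edgeR adjusted p = 7.29e-14). ERO1A, which drives disulfide formation in the endoplasmic reticulum and which CHOP induces, rose by 1.17, and PMAIP1, the BH3-only protein NOXA, by 1.06 on the log2 scale. CDKN1A, GDF15 and PMAIP1 are also known targets of p53.

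In the lists of amino acid synthesis and of synthetases, more genes were lower than higher. Of 21 tested genes of amino acid and one-carbon synthesis, 4 were higher and 11 lower, with a median log2 fold change of -0.25. GOT2, the mitochondrial aspartate aminotransferase, had 51.32, 51.03 and 53.67 CPM in sh-CBX7, against 154.5, 148.3 and 148.7 CPM in sh-Control (log2 fold change -1.53, edgeR adjusted p = 3.18e-15). PYCR1 of proline synthesis fell by 0.95 and the cytosolic serine hydroxymethyltransferase SHMT1 by 0.84 on the log2 scale. The 4 higher genes, CTH (0.70), PSPH (0.57), PCK2 (0.35) and SHMT2 (0.19), were chosen after their values were seen. The list of cytosolic aminoacyl-tRNA synthetases, which load amino acids onto tRNA, also holds XPOT, a tRNA export receptor and not a synthetase. Of the 21 tested genes of this list, 4 were higher and 11 lower, with a median of -0.17. RARS for arginine (-1.10), QARS for glutamine (-0.73) and VARS for valine (-0.64) were lower, and WARS for tryptophan (0.49), which interferon also induces, was higher. The other higher genes, chosen after their values were seen, were SARS (0.44), GARS (0.30) and XPOT (0.19).

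Of 11 amino acid transporters linked to ATF4, 10 were tested and all 10 were called, 6 higher and 4 lower, with a median log2 fold change of 0.24. The partners of one transporter moved apart: SLC3A2, the heavy chain shared by several exchangers, had 764.2 ± 19.9 CPM in sh-CBX7 and 518.8 ± 41.5 CPM in sh-Control (0.56, edgeR adjusted p = 2.57e-08), while SLC7A5, the LAT1 light chain that pairs with it, fell by 0.62 on the log2 scale (edgeR adjusted p = 1.45e-09). The glutamine carriers SLC1A5 and SLC38A1 fell by 0.61 and 0.73. SLC7A11, the cystine light chain that also pairs with SLC3A2 and was chosen after its values were seen, had 67.34, 72.23 and 70.37 CPM in sh-CBX7, against 35.52, 46.35 and 48.91 CPM in sh-Control (0.68, edgeR adjusted p = 8.22e-07). The CARE stood in the windows of 5 of 10 transporters of the list and 7 of 17 genes of the synthetase list that had a window. Among them were SLC3A2, which was higher, and SLC1A5 and SLC38A1, which were lower. In the other lists it stood in 4 of 17 bZIP genes, 3 of 13 synthesis genes and 1 of 19 eIF2 genes. It also stood in 1 of 18 IRE1 and ATF6 genes and 1 of 17 stress and death regulators. The latter is FGF21, chosen after its values were seen, which was near 0 counts and not tested. The list shares count genes with a window whether tested or not. Autophagy had 0 of 13 and mitochondrial stress 0 of 6. Over all tested genes with a window the share was 300 of 10833.

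The other arms of the unfolded protein response, run by IRE1 and ATF6, had 13 of 18 tested genes higher and 2 lower, with a median log2 fold change of 0.27. CALR, a calcium-binding chaperone, had 2880 ± 82.8 CPM in sh-CBX7 and 1609 ± 58.2 CPM in sh-Control (0.84, edgeR adjusted p = 2.27e-12), and HERPUD1 (0.69) and DNAJB9 (0.72) of the response to unfolded protein were also higher. HYOU1, a large chaperone of the same compartment, was lower, with 92.5 ± 2.97 CPM in sh-CBX7 and 202.5 ± 5.20 CPM in sh-Control (-1.13, edgeR adjusted p = 2.51e-13). HSPA5, the chaperone BiP that both responses share and chosen after its values were seen, had a log2 fold change of 0.08 and did not pass the test (edgeR adjusted p = 0.157).

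**Figure D5:**
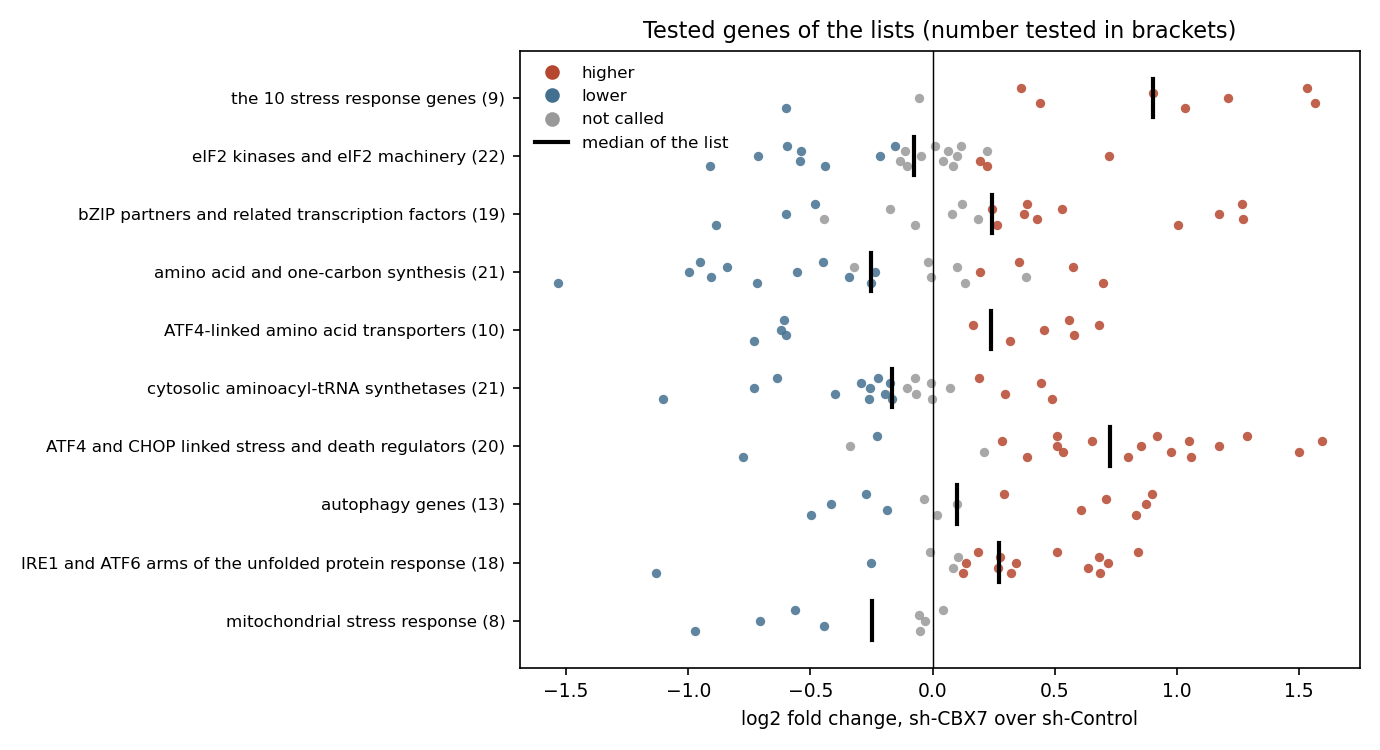
Log2 fold change, sh-CBX7 over sh-Control, of the tested genes of the 10 members and of 9 lists of related genes, with the number tested in brackets; red points were higher, blue points lower and grey points not called, and black bars are medians. The members and the stress and death regulators have medians near 0.9 and 0.7, and the synthesis, synthetase and mitochondrial lists have medians below 0.

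The genes most like ATF4 over the 6 libraries, by Pearson's correlation of log2 CPM among 9349 genes averaging 10 CPM or more, were RNF19B (r = 0.9993), LTBR (0.999) and RNF214 (0.9989). For DDIT3 they were LYST (0.9995), STX2 (0.9994) and DPY19L1 (0.9993). The libraries fall into 2 groups, so these values carry mainly the group difference, and 1098 genes for ATF4 and 1385 for DDIT3 had an r of at least 0.95.

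The libraries held 16384151 to 18868874 counts, and CBX7 itself fell to 143, 111 and 142 counts in sh-CBX7, against 203, 240 and 183 in sh-Control (log2 fold change -0.71, SE 0.13, edgeR adjusted p = 5.41e-05). Principal component 1 held 71.7% of the variance and split sh-CBX7 from sh-Control. The pair-wise chi-square per gene within a group was 2.85 to 9.23, highest for a pair with sh-Control replicate 1. Without that library the log2 fold changes were 0.48 for ATF4, 1.498 for DDIT3, 0.97 for TRIB3, 1.62 for NUPR1, 1.22 for PPP1R15A, 1.26 for ASNS and -0.07 for PSAT1. Of 11 tested markers of renal tumour epithelium, 4 were higher and 3 lower, with a median log2 fold change of 0.09. MME (0.81), KRT8 (0.44), KRT18 (0.43) and CDH2 (0.38) were higher and CD70 (-0.39), PAX8 (-0.32) and PAX2 (-0.49) lower. PAX8 had 225.6 ± 2.85 CPM in sh-CBX7 and 282.2 ± 10.3 CPM in sh-Control, CA9 had 1.05 ± 0.41 CPM in sh-CBX7 and 1.14 ± 0.41 CPM in sh-Control, and NDUFA4L2 was near 0, so not all markers of clear cell tumours were present. The summed level of 9 immune markers was 1.06 to 2.48 CPM in sh-CBX7 and 1.43 to 2.27 CPM in sh-Control, with PTPRC, CD3E and MS4A1 at 0 in every library. The 6 endothelial markers summed to 3.99 to 5.41 CPM in sh-CBX7 and 2.53 to 3.498 CPM in sh-Control, with CDH5 at 0, and the 6 fibroblast markers to 11.1 to 12.7 CPM in sh-CBX7 and 10.04 to 11.7 CPM in sh-Control.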

How the data were processed

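Per the labels' protocols, poly-T beads selected mRNA and the library kit was directional. The submitters' processing notes list HISAT2 2.0.5, featureCounts 1.5.0-p3, Trimmomatic and FastQC; how reads in overlapping genes and strand were counted is not given in the sources used here. The authors deposited raw read counts per gene. Their notes name hg19, but all 10 members have the coordinates of GENCODE 29 on GRCh38, which is used. The table calls the knockdown columns siCBX7; they were matched to the sh-CBX7 labels by target and number.

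Genes passing filterByExpr of edgeR 4.0.16 (R 4.3.3) were scaled by TMM and tested with its quasi-likelihood F-test in an unpaired fit, with Benjamini-Hochberg adjustment over 14573 genes and calls below 0.05. The SE is the log2 fold change divided by the square root of F. CPM and TPM were computed from the counts. Of library totals of 16384151 to 18868874 counts, ASNS and PHGDH each held under 100 counts per library. PHGDH was tested on log2(CPM + 0.5).

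The members and lists were chosen with earlier results of these data known. Besides the members and CBX7, up to 4 tested genes per list by smallest p are named, the 3 genes most correlated with ATF4 and DDIT3, genes overlapping members, and markers; 1 gene that this rule takes is not reported here, and others are marked. Alternatives were other scalings and filters, DESeq2 1.42.0, limma voom 3.58.1, the replicate number as a block, and leaving out each library.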

Additional observations from a re-analysis of the deposited data

How the results depend on the processing

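The direction and the call of the 9 tested members and of CBX7, the counts of members, and the calls of the 36 other genes named by rule were the same in all 14 alternatives run. Leaving out 1 library at a time gave log2 fold changes of 0.39 to 0.48 for ATF4, 1.498 to 1.57 for DDIT3, 0.93 to 1.26 for ASNS and -0.69 to -0.48 for CHAC1, and 3398 to 3953 genes higher and 3584 to 4082 lower. DESeq2 called 3580 genes higher and 3630 lower. Upper quartile scaling moved the median of all genes to 0.04 and the calls to 4312 higher and 3521 lower.

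The replicate number as a block gave 3972 genes higher and 4126 lower, with 7 members higher and 1 lower. The labels do not tie equal numbers, so the numbers were not taken as pairs. The deviations of same-numbered libraries from their group means correlated at 0.035 to 0.061. Those of differently numbered libraries across the groups correlated at -0.047 to -0.009. Whether equal numbers share an effect was not tested. Low counts limit PHGDH, with 4 to 17 per library. ASNS held 30 to 84, and reads in bases shared with AC079781.5 may be missing from these.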

Other observations

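Autophagy genes, many of them known ATF4 and CHOP targets, had 6 of 13 tested members (46.2%) higher and 4 (30.8%) lower in sh-CBX7, with a median log2 fold change of 0.10, beside 26.1% higher and 27.2% lower over all tested genes. SQSTM1, the cargo receptor p62, had 1189, 1133 and 1113 CPM in sh-CBX7, against 676.6, 583.4 and 617.2 CPM in sh-Control (log2 fold change 0.87, edgeR adjusted p = 1.47e-11). MAP1LC3B and GABARAPL2, which coat the autophagosome, rose by 0.83 and 0.61, and the initiating kinase ULK1 by 0.71 on the log2 scale. The lower genes, chosen after their values were seen, were ATG5 (-0.50), ATG7 (-0.42), BECN1 (-0.27) and ATG16L1 (-0.19), which act in the start and the conjugation steps of autophagosome formation. Of 8 genes of the mitochondrial stress response, 4 were lower and the other 4 were not called. HSPD1, the matrix chaperonin, had 346.0, 358.0 and 320.2 CPM in sh-CBX7, against 622.3, 690.0 and 695.6 CPM in sh-Control (log2 fold change -0.97, edgeR adjusted p = 3.96e-12). Its partner HSPE1 fell by 0.44, and the chaperones TRAP1 and DNAJA3 fell by 0.71 and 0.56 on the log2 scale.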
